A study of Rattus norvegicus with 4 samples.

Results

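The genes described here encode the translation initiation and elongation factors of the cytosol, with their close paralogs and the enzymes that share their names. Members were all genes whose only platform symbol starts with Eif and a digit from 1 to 6, or with Eef1 or Eef2, and the elongation factor kinase gene Eef2k was left out. The rule took 59 of the 14217 named genes, through 89 probe sets, and used no measured value. Mammary gland RNA of rats was hybridised to 4 Affymetrix arrays, 1 for each of 4 groups. Sprague-Dawley rats (SDR) gave a lactation array and an involution array, while the Hirosaki hairless rat (HHR), a mutant without normal hair, is represented by a heterozygous and a homozygous array at lactation. Every array is labelled day 1 of its stage. The labels give no age, no number of animals behind an array and no name for the mutated gene. With 1 array per group no difference given below has a replicate error or a test, so differences are described by size alone.

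Translation of most mRNAs starts when eIF2 brings the initiator tRNA to the small ribosomal subunit, eIF3 holds the preinitiation complex together and eIF4F places it on the mRNA cap. In eIF4F, eIF4E binds the cap, eIF4A unwinds the leader and eIF4G is the scaffold between them. Kinases that phosphorylate eIF2 and small proteins that bind eIF4E slow initiation, and eEF1 and eEF2 then carry the ribosome along the message. In the lactating gland this machinery serves a very high output of milk protein, and its control through mTOR and through eIF2 is a known point at which hormones and amino acids act.

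The start regions of some members carry the E-box CACGTG, the hexamer that Myc and related factors bind, and 4 are shown because their genes differ in how their signals ran over the arrays (values below). RefSeq windows of 250 bases before to 50 bases after the annotated start (GRCr8) were found for 54 of the 59 members, and not for Eef1d, Eif3h, Eif4b, Eif4e3 and Eif4ebp1. The E-box, which reads the same on both strands, was in the windows of 11 of these 54 members (20.4%) and of 1462 of 19005 protein-coding genes (7.69%). The lines below give the 250 bases before the start, 5′ to 3′ on the strand of the gene, with the E-box in capitals.
Eif4e: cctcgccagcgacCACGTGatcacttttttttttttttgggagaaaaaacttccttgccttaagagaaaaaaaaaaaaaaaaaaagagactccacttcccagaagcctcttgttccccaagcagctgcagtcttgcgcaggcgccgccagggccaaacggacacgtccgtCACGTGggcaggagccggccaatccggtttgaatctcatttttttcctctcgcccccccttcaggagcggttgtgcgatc
Eif5a: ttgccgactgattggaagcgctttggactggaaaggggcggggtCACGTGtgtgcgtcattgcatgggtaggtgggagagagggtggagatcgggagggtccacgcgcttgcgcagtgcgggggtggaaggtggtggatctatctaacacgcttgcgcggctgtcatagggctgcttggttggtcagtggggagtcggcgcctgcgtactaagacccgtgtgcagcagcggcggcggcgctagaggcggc
Eif4g1: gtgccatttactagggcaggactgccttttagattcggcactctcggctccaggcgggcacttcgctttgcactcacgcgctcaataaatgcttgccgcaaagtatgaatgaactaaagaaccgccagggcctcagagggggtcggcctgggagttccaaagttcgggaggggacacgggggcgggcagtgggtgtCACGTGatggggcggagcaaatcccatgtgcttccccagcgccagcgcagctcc
Eif3b: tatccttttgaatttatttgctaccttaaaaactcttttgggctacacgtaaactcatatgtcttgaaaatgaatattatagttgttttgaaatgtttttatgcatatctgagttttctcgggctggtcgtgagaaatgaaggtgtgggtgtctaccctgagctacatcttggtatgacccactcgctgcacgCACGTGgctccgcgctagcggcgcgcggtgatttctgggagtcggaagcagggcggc
These stretches lie at chr2:229740503-229740752 (plus strand), chr10:55143222-55143471 (minus strand), chr11:93746368-93746617 (minus strand) and chr12:19334769-19335018 (minus strand). In Eif4e the E-boxes begin 237 and 80 bases before the start, in Eif5a 206, in Eif4g1 54 and in Eif3b 57. A second E-box of Eif4g1 lies after its start, outside the stretch shown. The other members with the hexamer were Eef1akmt4, Eef2, Eif1b, Eif3a, Eif3f, Eif4h and Eif5a2. A CCAAT box, searched on both strands, was in 33.3% of member windows against 39.8% of all. The full palindromic NRF1 motif was in 1 member (Eif3k; 1.85% against 1.16%), and the Atf4 and C/EBP element TGATGNAAN was in 1 (Eif2s2; 1.85% against 3.60%). A C followed by at least 5 pyrimidines within 10 bases of the start, the kind of leader known from mRNAs under mTOR control, was in 24.1% of member windows and 18.7% of all, among them Eef1a1, Eef1b2 and Eif3f. These matches describe the letters of the windows only, and no window was set against an expression value by a test.

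Signals are MAS5 values on a linear scale, and values below 91.5, the 40th percentile of all probe sets over the 4 arrays, were raised to that floor. Where the lower array of a pair sits at the floor, the fold can only be a minimum. Each array had between 10368 and 10472 of the 14217 genes above the floor. Control probes at both ends of the Gapdh transcript, whose 3′/5′ ratio is larger in degraded RNA, gave 1.17 for SDR lactation and 1.60 for SDR involution, with 1.93 for heterozygous and 2.30 for homozygous HHR. For actin SDR lactation had 4.60 and SDR involution 4.80, against 7.87 and 5.91 for the HHR arrays. All 7 secretory epithelium markers on the array, milk protein genes among them, were above the floor in each array. Of the markers of other cells, the summed signal of 5 adipocyte genes was 26511 in SDR lactation, 13639 in the heterozygous and 13624 in the homozygous HHR array, and 6351 in involution (4 of 5 above the floor, Lep at it). Fabp4 carried most of that sum, and the other 3 (Adipoq, Cidec and Plin1) were higher in both HHR arrays than in SDR lactation, with a median log2 difference over the 4 genes of 0.68 in heterozygous and 0.53 in homozygous HHR. In involution all 4 were lower. That of 5 myoepithelial genes was 13048, 23778, 23082 and 17084, that of 5 fibroblast genes 61157, 39822, 60753 and 46471, and that of 5 macrophage genes 5571, 3034, 4334 and 5266. Single genes ran against these sums. Oxtr, of the myoepithelial genes, had 316 in SDR lactation, 146 in heterozygous HHR and the floor in the other arrays. Against SDR lactation 2 of 5 fibroblast genes were higher in heterozygous HHR and 2 in involution. Of 5 macrophage genes 2 were higher in homozygous HHR and 3 in involution, but 0 in heterozygous HHR. The sums for 4 endothelial genes were 5009, 3011, 3045 and 3117, but in involution only Kdr was below SDR lactation (597 against 3286) and Cldn5, Pecam1 and Vwf were above it (median of the 4 genes 0.36). In homozygous HHR Pecam1 and Vwf were above SDR lactation, and Cldn5 and Kdr below it. The part of these cell types in the results below was not tested, and in whole tissue fewer cells of a type and less RNA per cell cannot be told apart.

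Of the 59 members, 55 were above the floor in all 4 arrays, 3 in some of them and 1 in none. The member at the floor everywhere was Eif2s3y, the copy of the eIF2 gamma subunit gene on the Y chromosome. Eef1a2, the eEF1A form of muscle and nerve, was above the floor only in heterozygous HHR, at 98.1. Eif5a2, a paralog of Eif5a, was above it only in involution, at 131. The third was Eef1akmt2, described with its family below. Over all 4 arrays 35 members stayed within 1.5-fold between their highest and lowest signal, and 10 spanned at least 2-fold. Over the 3 lactation arrays only Eef1akmt4 spanned 2-fold. Spans were not computed over all genes, so these counts do not show whether the members vary less than other genes.

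**Figure D1:**
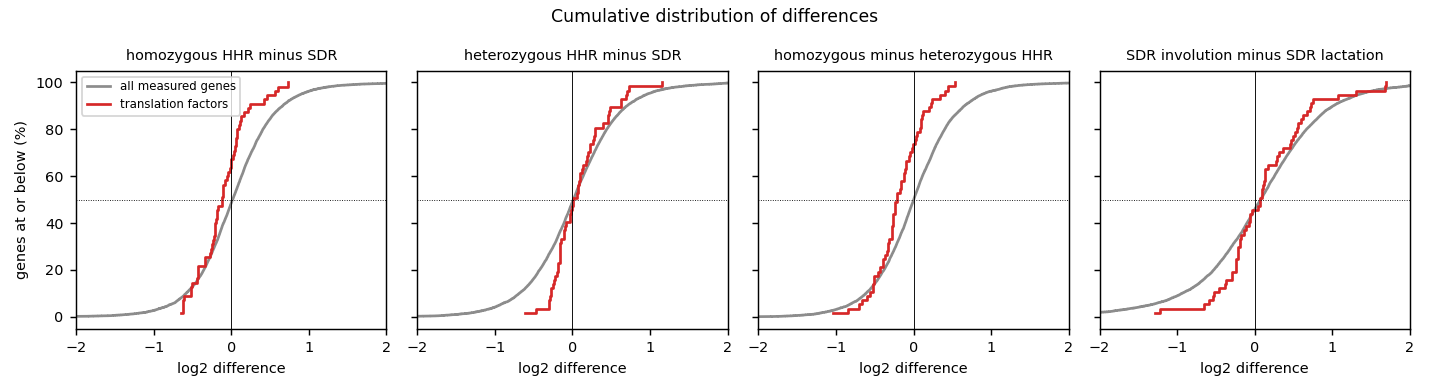
Cumulative share of genes (percent) at or below each log2 difference in 4 comparisons of single arrays, for the translation factors (red) and all measured genes (grey). The red line runs left of the grey one around 0 in homozygous minus heterozygous HHR, where 73.7% of translation factors were lower against 49.8% of all genes.

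In homozygous HHR against SDR at lactation most translation factor genes had somewhat lower signal in the mutant, and none was far apart. Of 55 members that exceeded the floor in either array, 37 were lower and 18 higher, against 48.6% lower and 51.4% higher of 10866 genes. At 2-fold, 0 members were higher and 0 lower, where 3.77% of all genes were higher and 2.72% lower. At 1.5-fold, 2 were higher and 5 lower, beside 12.2% and 9.99% of all genes, and under quantile normalization these counts were 1 and 4. The median log2 difference was -0.12 for the members and 0.02 for all genes. The members past 1.5-fold were Eif2a and Eif2ak1 on the higher side and Eif2b2, Eif5a, Eif1b, Eif4e and Eif2ak2 on the lower.

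In heterozygous HHR against SDR the members were balanced, with 27 of 57 lower and 30 higher, against 49% lower and 51% higher of 10876 genes. The median was 0.01 for members and for all genes. At 2-fold 1 member was higher, Eef1akmt4, and 0 lower, beside 4.58% and 4.15% of all genes. At 1.5-fold 6 were higher and 1 lower, beside 13.8% and 13% of all genes, and under quantile normalization they were 6 and 0. The others on the higher side were Eif4g1, Eif2a, Eif4e3, Eif4g3 and Eif2b5, and the lower one was Eif4ebp1. Both HHR comparisons use the SDR lactation array.

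Between the HHR arrays the shift was wider. In homozygous against heterozygous HHR 42 of 57 members were lower (73.7%) and 15 higher, where 49.8% and 50.2% of 10877 genes were. The median was -0.21 for the members and 0.00 for all genes, and among genes with a mean signal of at least 1000 it was -0.21 for 45 members and -0.03 for 3641 genes. Median centring of the arrays gave 41 lower members and quantile normalization 42. The sizes were small, with 1 member lower and 0 higher at 2-fold beside 3.14% and 3.76% of all genes. At 1.5-fold 5 were lower, Eef1akmt4, Eif4e, Eif2b1, Eef1e1 and Eif5a, and 0 higher, beside 11% and 12.3% of all genes.

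In SDR involution against SDR lactation the members moved apart from each other, with no common direction. Of 57 members 31 were higher and 26 lower, near the 54.3% and 45.7% of 11014 genes. The median was 0.07 for members and 0.08 for all genes, but median centring, which moved the median of all genes to -0.06, gave 21 higher and 36 lower members with a median of -0.078. Quantile normalization tilted the other way, with 38 higher and 19 lower members and a median of 0.16. At 2-fold 4 members were higher and 2 lower, beside 10.3% and 8.94% of all genes. At 1.5-fold 10 were higher and 4 lower, beside 23.5% and 18% of all genes, while median centring gave 5 and 7 and quantile normalization 12 and 3. The share past either size was below that of all genes in both directions.

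**Figure D2:**
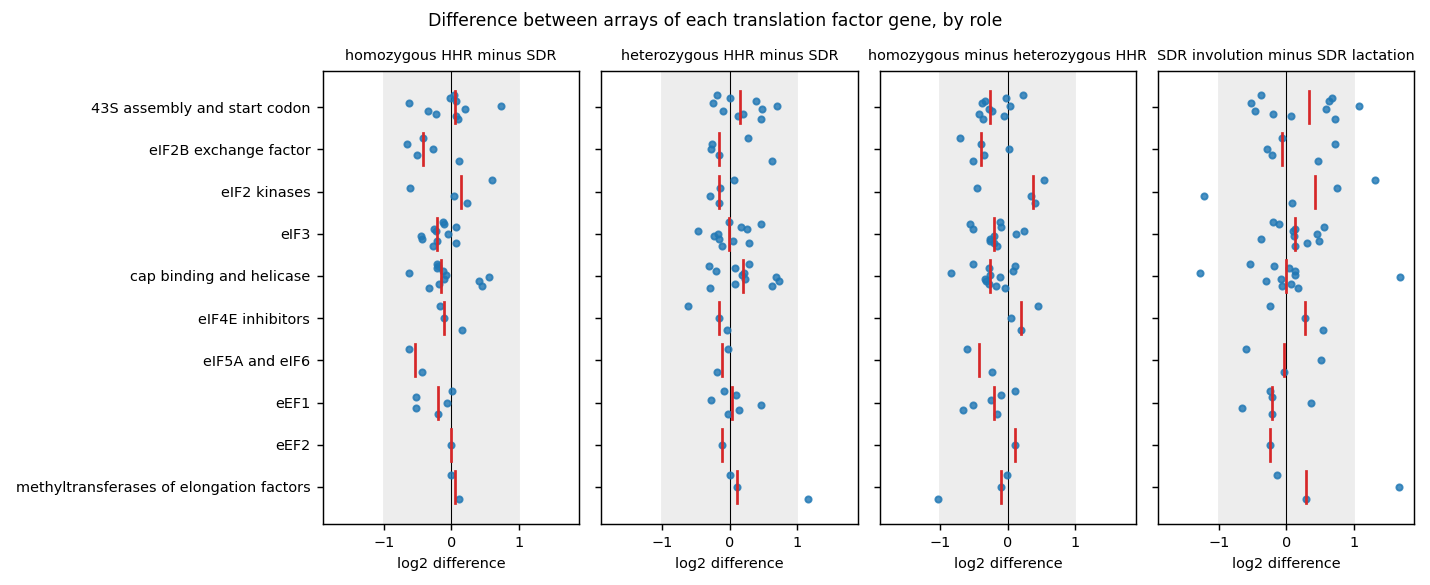
Log2 difference of each translation factor gene between 2 single arrays, by role, for 4 comparisons. Points are genes that exceeded the floor in either array of the pair, red bars are medians of the role group, and the grey band marks differences under 2-fold. In homozygous minus heterozygous HHR the points lie mostly left of 0 except for the eIF2 kinases, the eIF4E inhibitors and eEF2.

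The factors that assemble the preinitiation complex and find the start codon numbered 11, of which 10 were measured. In involution 6 of the 10 were higher than in SDR lactation, 5 of them at least 1.5-fold (Eif2a, Eif5b, Eif1ad, Eif1ax and Eif2d). None was 1.5-fold lower with its brightest probe set, but the further probe sets of Eif1a were (values below). Over all genes 54.3% were higher at any size and 23.5% at 1.5-fold. Median centring left 5 higher and 5 lower. Eif2a, a factor that can bring initiator tRNA to the ribosome apart from eIF2, had 977 in SDR lactation, 1596 in the heterozygous and 1628 in the homozygous HHR array, and 2058 in involution. The SDR lactation array was thus the low one, by 1.63-fold, 1.67-fold and 2.11-fold. Median centring took the involution difference to 0.93 on the log2 scale, under 2-fold. Eif5b, the GTPase that joins the ribosomal subunits, had 1249, 1721, 1338 and 2066 in the same order, and 2 further probe sets above the floor gave the same order of the arrays. Its difference in involution was 0.73 on the log2 scale with the brightest probe set and 1.08 and 1.86 with the others.

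The subunits of eIF2 itself lay closer together. Eif2s1, the alpha subunit that the kinases phosphorylate, had 3681 in SDR lactation, 3442 in the heterozygous and 2910 in the homozygous HHR array, and 2685 in involution. The beta subunit gene Eif2s2 had 6813, 7839, 5814 and 5972 in that order, and the gamma subunit gene Eif2s3 spanned only 1.09-fold. Eif1b, a paralog of the start codon factor eIF1, had 1073, 909, 695 and 746, lowest in homozygous HHR at 1.54-fold below SDR. For Eif1a, which works beside eIF1 in scanning, 4 probe sets were above the floor. They disagreed in size and, in homozygous HHR against both other lactation arrays, in direction, so that direction is not settled. In homozygous HHR against SDR the brightest gave 0.04 on the log2 scale, another 0.06 and the remaining pair -0.79 and -1.32. In involution against SDR lactation all 4 were lower, by -0.37 with the brightest and -0.89, -0.98 and -1.76 with the others.

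The exchange factor eIF2B reloads eIF2 with GTP and is what phosphorylated eIF2 blocks. Its 5 subunit genes had a median log2 difference of -0.42 in homozygous HHR against SDR, with 4 lower, and of -0.40 against heterozygous HHR, also with 4 lower. Over all genes 48.6% and 49.8% were lower in these comparisons. Eif2b2, the beta subunit, had 739 in SDR lactation, 619 in the heterozygous and 470 in the homozygous HHR array, and 1215 in involution. It was 1.57-fold lower in homozygous HHR and 1.64-fold higher in involution than in SDR lactation, so that these arrays were the lowest and the highest. Eif2b1, the alpha subunit, had 1250, 1517, 931 and 1197, and was 1.63-fold lower in homozygous than in heterozygous HHR. Eif2b5, the catalytic epsilon subunit, had 608, 936, 657 and 840 and was highest in heterozygous HHR, 1.54-fold above SDR. Eif2b3 and Eif2b4 stayed under 1.5-fold in every pair, at up to 1.22-fold and 1.42-fold.

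The 4 kinases of eIF2 each answer another stress, and in involution they went opposite ways. Eif2ak1, the kinase that heme restrains, had 1123 in SDR lactation, 1180 in the heterozygous and 1709 in the homozygous HHR array, and 2788 in involution. It was 2.48-fold higher in involution than in SDR lactation and 1.52-fold higher in homozygous HHR, and a second probe set had a log2 difference of 0.96 in involution and 0.23 in homozygous HHR. Eif2ak3, the kinase PERK of the endoplasmic reticulum, had 1171, 953, 1210 and 504, and was 2.32-fold lower in involution than in SDR lactation, while the 3 lactation arrays lay within 1.27-fold.

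Eif2ak2, the kinase PKR that double-stranded RNA activates and interferon induces, had 526, 475, 346 and 887 in that order of arrays. Homozygous HHR was 1.52-fold below SDR lactation and involution 1.69-fold above it. Eif2ak4, the amino acid sensor GCN2, stayed within 1.32-fold over the 4 arrays. In homozygous against heterozygous HHR the kinases ran against most other members, with 3 of 4 higher and a median of 0.37. Over all genes 50.2% were higher. The summed signal of the red cell genes Hbb and Alas2 was 15060 in SDR lactation, 4763 in the heterozygous and 7211 in the homozygous HHR array, and 3568 in involution. Its part in the Eif2ak1 values was not tested.

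**Figure D3:**
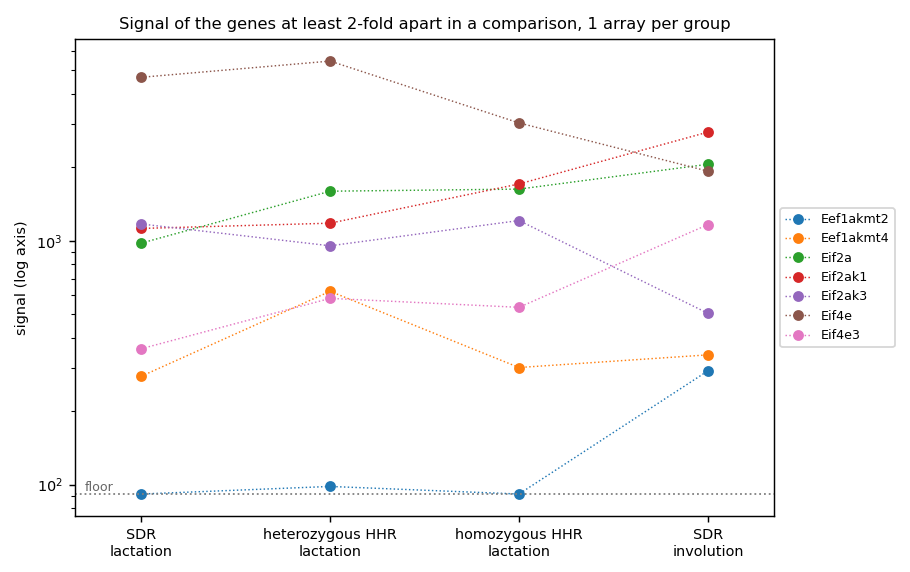
Signal on a log axis of the 7 translation factor genes at least 2-fold apart in at least 1 of the 4 comparisons, 1 point per array; dotted lines join the points of a gene and the horizontal line is the floor. Eif4e and Eif2ak3 are lowest in SDR involution, where Eif2ak1, Eif2a, Eif4e3 and Eef1akmt2 are highest, and Eef1akmt4 is highest in heterozygous HHR.

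The 11 measured subunits of eIF3, the large scaffold of the preinitiation complex, had no brightest probe set past 1.5-fold in any of the 4 comparisons. Further probe sets of Eif3l, Eif3c, Eif3j, Eif3a and Eif3k were 4.06-fold, 3.53-fold, 1.67-fold, 1.65-fold and 1.52-fold lower in homozygous HHR than in SDR. In involution that of Eif3l was 2.30-fold below SDR lactation, and the others stayed under 1.5-fold. With the brightest probe sets between 9.99% and 23.5% of all genes passed 1.5-fold in each direction. In homozygous HHR against SDR 9 of 11 were lower with a median of -0.21, beside 48.6% of all genes. In homozygous against heterozygous HHR 9 of 11 were lower with a median of -0.21, beside 49.8% of all genes. Median centring gave the same counts and quantile normalization gave 8 and 9, while the mean of all probe sets gave 11 of 11 lower than SDR with a median of -0.41, and 9 of 11 lower than heterozygous HHR with -0.31. Eif3b, a core subunit that binds RNA, had 3283 in SDR lactation, 4511 in the heterozygous and 3053 in the homozygous HHR array, and 3042 in involution. It stood out in the heterozygous array, 1.48-fold above the homozygous one. Eif3c, another core subunit, had 5140, 5782, 5373 and 7595, and involution was 1.48-fold above SDR lactation.

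Other eIF3 subunits were also highest in involution. Eif3h had 6162, 5496, 5990 and 8445 in SDR lactation, heterozygous HHR, homozygous HHR and involution, and Eif3k had 2291, 2379, 1983 and 3216. Eif3f had its low value in the heterozygous array, at 4129 against 5725 in SDR lactation. In involution 8 of 11 subunits were above SDR lactation with a median of 0.13, beside 54.3% of all genes. But median centring turned the count to 4 of 11 and the median to -0.02. The remaining subunits were Eif3a, Eif3d, Eif3i, Eif3j, Eif3l and Eif3m. With the brightest probe sets the widest of these spanned 1.47-fold over the 4 arrays (Eif3i). Eif3e could not be counted, because its probe set lists a second symbol. Its signal was 5432 in SDR lactation, 4522 in the heterozygous and 4277 in the homozygous HHR array, and 7255 in involution.

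Among the 12 genes of the cap-binding complex and its helicase 1 was past 2-fold above SDR lactation in involution and 1 past 2-fold below it. Over all genes these shares were 10.3% and 8.94%. Eif4e, whose product binds the cap, had 4678 in SDR lactation, 5452 in the heterozygous and 3041 in the homozygous HHR array, and 1928 in involution. Homozygous HHR was 1.54-fold below SDR and 1.79-fold below heterozygous HHR, and involution was 2.43-fold below SDR lactation. Its other probe sets were at or close to the floor, and averaging every probe set of the gene gave an involution difference of -0.46 on the log2 scale, under 2-fold. Eif4e3, a divergent cap-binding paralog, went the other way in involution, with 361, 580, 533 and 1164 in the same order of arrays. It was 3.23-fold higher in involution than in SDR lactation, but a dimmer probe set of the gene gave a log2 difference of only 0.24, and the mean of the probe sets gave 0.96, under 2-fold. In heterozygous HHR against SDR the brighter probe set gave 0.69 and the dimmer -0.06, so that direction is not settled. Eif4e2, a paralog known for repressing translation, spanned 1.21-fold.

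Eif4a1, the main helicase, had the same order of arrays as Eif4e, at 11256 in SDR lactation, 13788 in the heterozygous and 9685 in the homozygous HHR array, and 7765 in involution. Homozygous HHR was 1.42-fold below heterozygous HHR, and involution was 1.45-fold below SDR lactation. Eif4a2, its close paralog, had 8894, 7196, 7770 and 7854 with its brightest probe set, lowest in the heterozygous array, where Eif4a1 was highest. A second probe set of Eif4a2 had 886.5, 674.2, 419.7 and 405.1, lowest in involution, so the order of the arrays for Eif4a2 is not settled. Eif4a3, the helicase of the exon junction complex, spanned 1.22-fold.

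Of the scaffolds, Eif4g1 had 2677, 4448, 3569 and 2185 in SDR lactation, heterozygous HHR, homozygous HHR and involution, 1.66-fold higher in heterozygous HHR than in SDR. Its further probe sets disagreed, with log2 differences of -0.10, -0.25 and 0.38 where the brightest gave 0.73, so the direction for Eif4g1 is not settled. Eif4g3 had 1533, 2365, 2104 and 1469, and heterozygous HHR was 1.54-fold above SDR. Eif4g2, a relative that does not bind eIF4E, spanned 1.21-fold with its brightest probe set. Of the helicase helpers Eif4b and Eif4h, and Eif4enif1, whose product binds eIF4E, none passed 1.5-fold with its brightest probe set. Their widest span was 1.43-fold (Eif4h).

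The eIF4E-binding proteins, which block eIF4E until mTOR phosphorylates them, were 3 genes. Eif4ebp1 had 3910 in SDR lactation, 2561 in the heterozygous and 3483 in the homozygous HHR array, and 3300 in involution. The heterozygous array was the low one, 1.53-fold below SDR. Eif4ebp3 had 1146, 1116, 1284 and 1670, highest in involution at 1.46-fold above SDR lactation, and Eif4ebp2 spanned 1.35-fold. In homozygous against heterozygous HHR all 3 were higher, by 0.05 to 0.44 on the log2 scale, under both other scalings too. Over all genes 50.2% were higher. Eif4e itself was lower by 0.84 in that pair.

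Eif5a, the hypusine-bearing factor that helps ribosomes past stalling sequences, had 11356 in SDR lactation, 11168 in the heterozygous and 7344 in the homozygous HHR array, and 7530 in involution. Homozygous HHR was 1.55-fold and involution 1.51-fold below SDR lactation. Eif6, which keeps free large ribosomal subunits from joining small ones, had 2458, 2153, 1821 and 2397 and spanned 1.35-fold. The enzymes that make hypusine were in a list of partners, and Dohh and Dhps had log2 differences of -0.68 and -0.63 in homozygous against heterozygous HHR. In that pair 10 of the 17 measured genes of the list were lower, beside 49.8% of all genes. In involution against SDR lactation the 2 enzymes went opposite ways, at 0.48 for Dohh and -0.42 for Dhps.

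The elongation factors that act at every codon varied little over the arrays. Eef1a1, which delivers aminoacyl-tRNA to the ribosome, had 35245 in SDR lactation, 33239 in the heterozygous and 35624 in the homozygous HHR array, and 29733 in involution, a span of 1.20-fold. Eef2, the translocase, had 17217, 15936, 17090 and 14585, a span of 1.18-fold. Both were slightly lower in involution than in SDR lactation as deposited, Eef2 by 0.24 on the log2 scale, but under quantile normalization Eef2 was higher by 0.11.

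Of the exchange factor for eEF1A, Eef1b2 had 21095, 17426, 14728 and 18216 in SDR lactation, heterozygous HHR, homozygous HHR and involution, and Eef1g spanned 1.16-fold. Eef1d had 4362, 6032, 4198 and 5612, so heterozygous HHR was 1.44-fold above homozygous HHR. Eef1e1 shares the name but is a scaffold of the tRNA synthetase complex, and it had 2730, 3009, 1906 and 1728. It was 1.58-fold lower in homozygous than in heterozygous HHR and 1.58-fold lower in involution than in SDR lactation.

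The methyltransferases that modify lysines of eEF1A gave the only member past 2-fold among the lactation arrays. Eef1akmt4 had 278 in SDR lactation, 620 in the heterozygous and 302 in the homozygous HHR array, and 340 in involution. The heterozygous array was 2.23-fold above SDR and 2.05-fold above homozygous HHR. It was measured by a single probe set, of the kind whose probes may be shared between transcripts, and with the floor added as a pseudocount its log2 differences were 0.95 and -0.85. Eef1akmt2 was at the floor in SDR lactation and homozygous HHR, at 98.3 in heterozygous HHR and at 293 in involution, at least 3.20-fold higher there than in SDR lactation. With the floor at the 55th percentile its difference was 0.56 on the log2 scale. Eef1akmt1 spanned 1.11-fold.

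**Figure D4:**
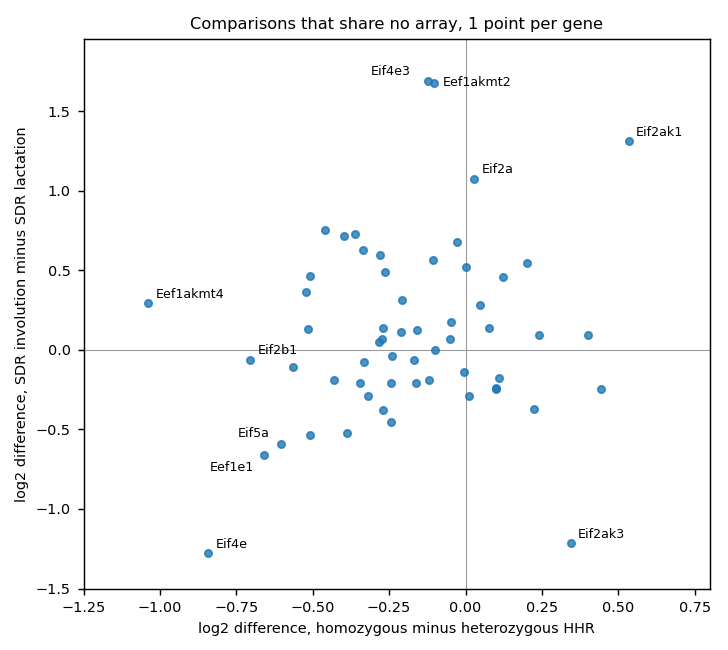
Each point is a translation factor gene above the floor in at least 1 array, with its log2 difference between homozygous and heterozygous HHR (horizontal) and between SDR involution and SDR lactation (vertical). Eif4e, Eef1e1 and Eif5a lie at the lower left, at least 1.5-fold lower in both comparisons, as were 359 of 11395 genes.

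The comparison of homozygous with heterozygous HHR and that of involution with lactation share no array. Eif4e, Eef1e1 and Eif5a were at least 1.5-fold lower in both, with log2 differences of -0.84, -0.66 and -0.60 between the HHR arrays and of -1.28, -0.66 and -0.59 in involution. Of 58 members 19 were lower in both, 8 higher in both and 29 went opposite ways. Of 11395 genes 2650, 3106 and 4733 did so, and 359 were at least 1.5-fold lower in both. The correlation across the 58 members was 0.17 (Pearson) and 0.11 (Spearman), and across the 11395 genes it was 0.22 and 0.15. These are weak, and genes are not replicates. All 4 arrays also share their scaling step.

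Genes that control the factors were read from lists. Of 25 measured genes of the mTOR, eIF2 and eIF4E control list, 12 were higher and 13 lower in homozygous HHR than in SDR, with 0 past 2-fold. Over all genes 51.4% were higher and 48.6% lower, and at 2-fold 3.77% and 2.72%. In heterozygous HHR 2 of the 25 were at least 2-fold lower and 0 higher, beside 4.15% and 4.58% of all genes. Mknk2, a kinase of eIF4E, had 3978 in SDR lactation, 1633 in the heterozygous and 4669 in the homozygous HHR array, and 2542 in involution, so the heterozygous array was low by 2.44-fold against SDR and 2.86-fold against homozygous HHR. The adaptor gene Nck1 had 2972, 1275, 2136 and 2167, 2.33-fold lower in heterozygous HHR than in SDR.

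In involution 1 of the 25 genes of that list was at least 2-fold higher and 2 lower than in SDR lactation, no larger a share than the 10.3% and 8.94% of all genes. Sesn2, a sensor that restrains mTOR when leucine is short, had 226, 300, 290 and 698 over SDR lactation, heterozygous HHR, homozygous HHR and involution, 3.09-fold higher in involution than in SDR lactation. Ppp1r15b, a subunit of the phosphatase that undoes eIF2 phosphorylation, was 2.52-fold lower, at 635 against 1600. Eef2k, the kinase of eEF2, had 1602, 2326, 1164 and 797 over the arrays and was 2.01-fold lower in involution. Pdcd4, an inhibitor of eIF4A, was 1.94-fold lower in involution and within 1.07-fold of SDR in both HHR arrays.

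The tRNA synthetases that charge the tRNAs for eEF1A had the same tilt between the HHR arrays. The list of 21 measured cytosolic genes also held Aimp1 and Aimp2, scaffolds of the synthetase complex that charge no tRNA. Of the 21, 19 were lower in homozygous than in heterozygous HHR with a median log2 difference of -0.46. At 1.5-fold 6 were lower, Aimp1 and Aimp2 among them, and 0 at 2-fold. Over all genes 49.8% were lower, 11% at 1.5-fold and 3.14% at 2-fold. The exceptions were Qars1 and Rars1. Against SDR 15 of the 21 were higher in heterozygous HHR with a median of 0.24, and 14 were lower in homozygous HHR with a median of -0.13. Over all genes 51% were higher and 48.6% lower in these comparisons. With the mean of all probe sets the median against SDR was -0.03 in heterozygous HHR and -0.34 in homozygous HHR, where 18 of 21 were lower. Between homozygous and heterozygous HHR that setting gave 18 of 21 lower and a median of -0.27. In involution the 21 split 11 higher to 10 lower, beside 54.3% and 45.7% of all genes. Gars1 was 2.14-fold higher than in SDR lactation while Iars1 was 2.97-fold and Cars1 2.64-fold lower. At 2-fold 10.3% of all genes were higher and 8.94% lower.

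Of 17 measured partners at the poly(A) tail, in reinitiation and in termination, 1 passed 2-fold in any comparison. This was Paip2, a brake on the poly(A)-binding protein, with 5398, 2424, 4410 and 6433 over SDR lactation, heterozygous HHR, homozygous HHR and involution. It was 2.23-fold lower in heterozygous HHR than in SDR. Over all genes between 2.72% and 10.3% passed 2-fold in each direction of a comparison. In involution 12 of the 17 were lower than in SDR lactation (median -0.25, and -0.06 under quantile normalization), beside 45.7% of all genes. Of 8 mitochondrial translation factors Tsfm, an exchange factor, had 1635, 832, 628 and 739 in that order and was 2.60-fold lower in homozygous HHR than in SDR. In homozygous against heterozygous HHR 6 of the 8 were lower (median -0.40), beside 49.8% of all genes.

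**Figure D5:**
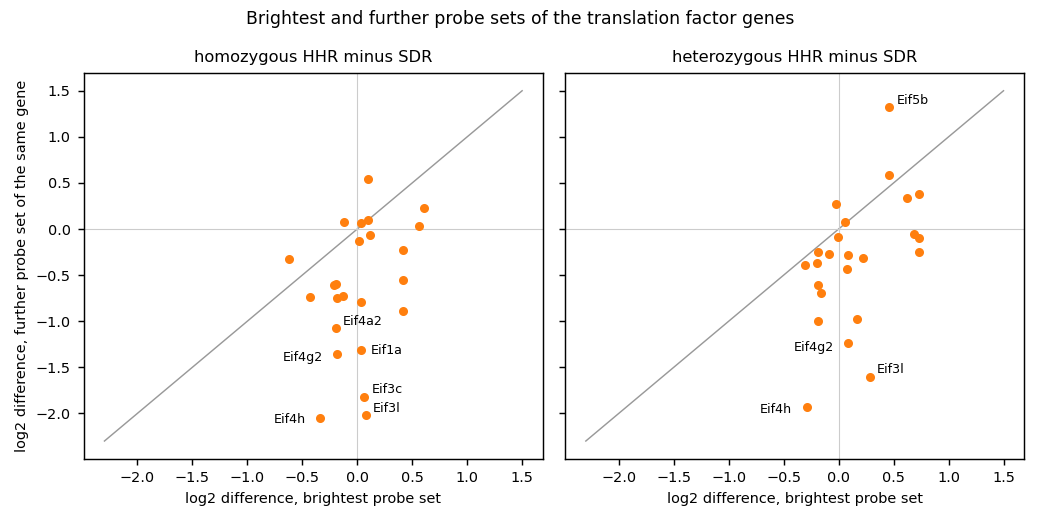
Log2 difference of each further probe set above the floor in at least 1 array (vertical) against that of the brightest probe set of the same gene (horizontal), for both HHR arrays against SDR lactation; the diagonal marks equal values. The further probe sets have medians of -0.60 in homozygous and -0.28 in heterozygous HHR, and points of Eif4h, Eif3l and Eif4g2 are more than 1 log2 unit below 0 in both panels.

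Several probe sets measured 23 of the members, and the dimmer ones gave other values than the brightest, which stands for the gene above. In homozygous HHR against SDR the 24 further probe sets above the floor had a median log2 difference of -0.60, where the brightest probe sets of the same 18 genes had -0.05. Of the 24, 6 were at least 2-fold lower and 0 higher. Over all genes 4096 further probe sets had a median of -0.15 against 0.07, and 11.7% were at least 2-fold lower against 3.30% higher. In heterozygous HHR against SDR the member values were -0.28 and 0.06, with 3 at least 2-fold lower and 1 higher (12.5% and 4.17%), near the 11.3% and 4.72% over all genes. Between homozygous and heterozygous HHR they were -0.36 and -0.14, with 1 at least 2-fold lower (4.17%) and 0 higher, near the 3.37% and 2.94% over all genes. In involution against SDR lactation they were -0.09 and 0.10, with 4 at least 2-fold lower and 2 higher (16.7% and 8.33%), beside 13.6% and 8.79% over all genes.

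Single genes show the size of it. For Eif4h, an eIF4A helper, the brightest probe set had 5236 in SDR lactation and 4148 in homozygous HHR, while a second had 809 and 196. For Eif3l they were 4702 and 4955 against 1796 and 442, and for Eif3c 5140 and 5373 against 821 and 233. Eif4g2 had 2 further probe sets, with log2 differences of -0.75 and -1.35 in homozygous HHR where the brightest had -0.19. A probe set shared by Eif2s3 and Eif2s3y, outside the rule, had 1047 in SDR lactation, 325 in the heterozygous and 262 in the homozygous HHR array, and 539 in involution. SDR lactation, the array with the lowest Gapdh ratio, was the highest for each of these dimmer probe sets except that of Eif4g2 that gave -0.75. Whether RNA quality has a part in this was not tested.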

How the data were processed

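The authors deposited 1 linear intensity for each probe set and array, made with MAS5 as the submitters' processing notes say (version not named). Total RNA was column purified and turned into biotinylated cRNA, per the labels' protocols. Trimming 2% of probe sets at either end left a mean of 500.2 on all 4 arrays. No detection calls were used. Each array held 31099 probe sets, 57 of them controls. The platform annotation gave 1 symbol for 20826 others, several for 436 and none for 9780. All 59 member identifiers were found in a RefSeq gene table (GRCr8).

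From these values log2 was taken after the floor (91.5), and the probe set with the highest mean stood for a gene. Differences between arrays were counted at 2-fold and 1.5-fold among genes exceeding the floor in either array (Python 3.11.15, pandas 2.3.3). The steps were tested on simulated data. The number of arrays limits the precision.

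Members and lists were chosen with earlier results of these data known. Signals in all arrays were given for members at least 2-fold apart and for the extremes of each role group, and up to 4 genes per related list and comparison were named; further members and list genes were chosen after their values were seen. Alternatives were 2 scalings, 3 treatments of low signals and 2 choices of probe set.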

Additional observations from a re-analysis of the deposited data

How the results depend on the processing

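Of the 54 values that the alternatives gave for the 8 differences past 2-fold, 54 kept their direction and 48 stayed past 2-fold. Many of these values could not move, so the counts overstate how much was put to the proof. A changed floor does not reach genes whose signals all lie above it. Averaging probe sets leaves a gene with a single probe set as it was. Leaving out shared-probe sets changes no gene whose brightest probe set is of another kind. Of 140 counts and medians under 7 alternatives, 20 moved, a count by over 1.5 times or a median by over 0.1; the cause was not tested. Under median centring the involution median was -0.078, with 5 members at least 1.5-fold higher and 7 lower. Under quantile normalization 1 member was 1.5-fold higher in homozygous HHR than in SDR, and 0 were lower in heterozygous HHR. With the pseudocount 1 was 1.5-fold higher and 2 lower in homozygous HHR than in SDR, 0 were 2-fold higher in heterozygous HHR, and 0 were 2-fold lower in homozygous than in heterozygous HHR. Without shared-probe sets, which leaves out Eef1akmt4, these last 2 counts were also 0. With the floor at the 25th percentile 2 members were 2-fold lower in homozygous than in heterozygous HHR.

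With the mean of all probe sets, which lets the dimmer ones count, the median in homozygous HHR against SDR was -0.23, with 9 members 1.5-fold lower, 1 of them 2-fold, and 1 higher by 1.5-fold. In heterozygous HHR against SDR 3 were then 1.5-fold higher and 3 lower, 1 of them 2-fold, and in homozygous against heterozygous HHR 1 was 1.5-fold higher. No replicate could be left out, and signals near the floor limit what can be seen of dim genes. No paired analysis was possible because each group has 1 array.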

Other observations

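Eif5, the GTPase activator of eIF2, was outside the rule because each of its 3 probe sets lists a pseudogene as well. They had 8388, 4617 and 2459 in SDR lactation, 9204, 5729 and 1520 in heterozygous HHR, 7263, 4199 and 990 in homozygous HHR and 10703, 5651 and 1718 in involution. The dimmest probe set was highest in SDR lactation, and the brighter pair in involution and in heterozygous HHR.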
